A study of Mus musculus with 12 samples.

Results

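The dental mesenchyme was compared between E11.5 and E13.5 in the 6 mesenchyme libraries of a series of 12, which were chosen by their labels alone: 3 libraries labelled E13.5 dental mesenchyme against 3 labelled E11.5 dental mesenchyme. The other 6 libraries are the dental epithelium of the same stages. All embryos were wild type (WT) C57BL/6 mice, and no group carried a treatment. At E11.5 the piece dissected was the mandible, whereas the E13.5 samples came from dissected tooth germs. Dispase served to part mesenchyme from epithelium, and tissue of the incisor as well as the molar region was collected. The stage and the piece dissected therefore cannot be told apart in any difference given here. In the labels the libraries carry numbers as biological replicates, yet pooled RNA is also mentioned, so the p-values measure only the spread between these libraries, which may be technical. Of the 34347 genes in the deposited table, 20271 had enough counts in mesenchyme to be tested, and the comparison covers all of them in both directions.

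Teeth form where neural crest-derived mesenchyme of the jaw meets the oral epithelium. In the mouse the ability to start a tooth lies in the epithelium at first and passes to the mesenchyme early in the bud stage. At that stage the mesenchyme condenses around the epithelial bud. The mesenchyme then lays down its matrix of collagens, proteoglycans and elastic fibres, whose glycosaminoglycan (GAG) chains bind signals of the WNT, BMP, SHH and FGF families. A dissected mandible also holds the precursors of bone, cartilage and tongue muscle, with vessels, nerves and blood cells.

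The deposited counts of the mesenchyme libraries summed to 73326484 to 76253642, and 24112 to 25548 genes had counts in a library. The first principal component of the 6 libraries held 63.0% of the variance and separated the stages. The second, with 13%, set replicate 1 of both stages apart from replicates 2 and 3. At both stages replicate 1 is the library whose name carries no number, and over genes of high counts it differed from its partners by a median of 10.5 to 15.5%, against 4.64 and 6.55% between replicates 2 and 3. No pair of libraries of a stage agreed within counting noise, so all 6 were kept as separate libraries. Of 20 mesenchyme markers all were tested, and their summed level was 642 to 803 FPKM (fragments scaled by transcript length and library depth) at E11.5 and 1547 to 1909 FPKM at E13.5. By the test defined below, 15 of them rose and 2 fell, with a median log2 fold change of 0.76. The sum includes the collagen genes Col1a1, Col1a2 and Col3a1. Their means were 39.98, 64.8 and 81.6 FPKM at E11.5 and 394, 229 and 414 FPKM at E13.5. Markers of epithelium and of other cell types moved as well, and their values are given below beside the results. In bulk RNA, fewer cells of a type and less RNA per cell cannot be told apart.

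A gene is said to have risen or fallen where it passed edgeR's quasi-likelihood test at a Benjamini-Hochberg adjusted p under 0.05 over all 20271 genes, and it is called where its log2 fold change was also at least 1 in size. The share of genes that pass is large in this comparison: 4465 genes rose (22.0%) and 3437 fell (17.0%), and the FPKM of the stages did not overlap for 10319 genes (50.9%). Levels are given in FPKM, per library in the order of replicates 1, 2 and 3, or as mean ± SD over the 3 libraries of a stage. Fold changes are E13.5 against E11.5 on the log2 scale, with their standard error (SE).

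The 6 genes named as markers of the comparison were Aspn, Postn, Lox, Anxa1, Papss2 and Car14, and the libraries of the stages did not overlap for any of them. Aspn, Postn, Lox, Anxa1 and Papss2 rose and Car14 fell. In mm10 the genes lie at chr13:49544443-49567565 on the plus strand (Aspn), chr3:54361109-54391037 on the plus strand (Postn), chr19:20373428-20390944 on the minus strand (Anxa1), chr19:32595790-32667185 on the plus strand (Papss2) and chr3:95897768-95904691 on the minus strand (Car14).

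Aspn encodes asporin, a small leucine-rich proteoglycan that binds collagen, and it measured 0.505, 0.622 and 0.503 FPKM at E11.5 and 29.3, 31.3 and 28.2 FPKM at E13.5 (log2 fold change 5.73, SE 0.14, adjusted p = 7.8e-07). Postn, which encodes the matricellular protein periostin, measured 11.46, 12.4 and 12.7 FPKM at E11.5 and 74.96, 67.7 and 69.2 FPKM at E13.5 (log2 fold change 2.51, SE 0.08, adjusted p = 1.64e-06). Of the 6 genes it was the one with the highest level at E11.5 among those that rose. Lox encodes lysyl oxidase, which starts the crosslinks of collagen and elastin, and it measured 2.45, 3.73 and 3.68 FPKM at E11.5 and 63.3, 72.7 and 74.4 FPKM at E13.5 (log2 fold change 4.39, SE 0.16, adjusted p = 2.2e-06). The E13.5 means of Lox and Postn were close, at 70.1 and 70.6 FPKM. Anxa1, a calcium-dependent phospholipid-binding protein, measured 0.326, 0.377 and 0.346 FPKM at E11.5 and 10.2, 10.7 and 9.55 FPKM at E13.5 (log2 fold change 4.80, SE 0.14, adjusted p = 1.64e-06). Papss2 makes the activated sulfate donor that all sulfotransferases use, and it measured 0.215, 0.241 and 0.234 FPKM at E11.5 and 8.78, 11.1 and 8.51 FPKM at E13.5 (log2 fold change 5.33, SE 0.17, adjusted p = 1.64e-06). Anxa1 and Papss2 both stood under 1 FPKM in each E11.5 library. Car14, a membrane-bound carbonic anhydrase, went the other way with 19.2, 19.1 and 19.2 FPKM at E11.5 and 2.38, 2.63 and 2.603 FPKM at E13.5 (log2 fold change -2.95, SE 0.11, adjusted p = 2.2e-06). Its levels at E11.5 were nearly equal in the 3 libraries, and every E13.5 library stood far below them.

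**Figure D1:**
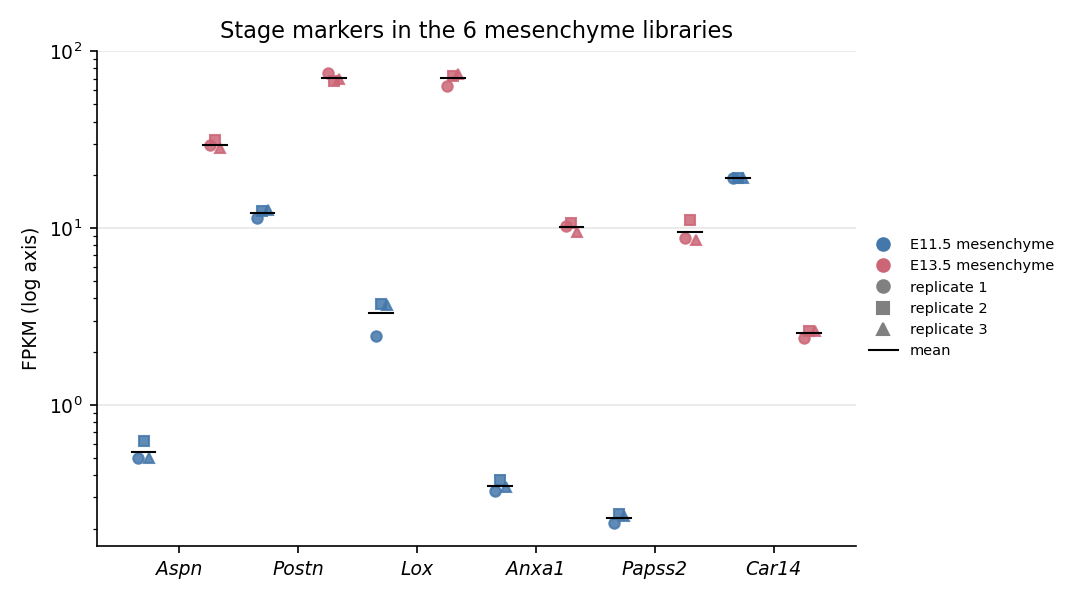
FPKM of the 6 stage markers (log axis) in each mesenchyme library, with E11.5 in blue and E13.5 in red, a symbol for each replicate and a line at the mean of 3 libraries. Aspn lay at 0.503 to 0.622 FPKM at E11.5 and 28.2 to 31.3 FPKM at E13.5, and Car14 at 19.1 to 19.2 FPKM and 2.38 to 2.63 FPKM.

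The RefSeq promoter windows of the markers with a single listed start are shown here, from 250 bases before the RefSeq start of the gene to 50 after it, since these genes moved together or, for Car14, against the others. They are read 5′ to 3′ on the strand of the gene in build GRCm38.p6, and capitals mark TATAAA, the core of the TATA box, on either strand. The RefSeq start of Anxa1 lies 273 bases inside the gene span given above, so its window lies wholly within that span. Postn and Papss2 have 2 listed starts each, and Lox had no entry among the windows used.
Aspn (chr13:49544193-49544492, plus strand): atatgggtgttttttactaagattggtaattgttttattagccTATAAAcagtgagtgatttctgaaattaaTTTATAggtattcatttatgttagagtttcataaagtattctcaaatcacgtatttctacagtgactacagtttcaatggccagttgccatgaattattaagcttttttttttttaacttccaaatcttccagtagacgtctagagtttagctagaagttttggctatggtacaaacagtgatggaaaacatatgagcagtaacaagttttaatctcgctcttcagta
Anxa1 (chr19:20390622-20390921, minus strand): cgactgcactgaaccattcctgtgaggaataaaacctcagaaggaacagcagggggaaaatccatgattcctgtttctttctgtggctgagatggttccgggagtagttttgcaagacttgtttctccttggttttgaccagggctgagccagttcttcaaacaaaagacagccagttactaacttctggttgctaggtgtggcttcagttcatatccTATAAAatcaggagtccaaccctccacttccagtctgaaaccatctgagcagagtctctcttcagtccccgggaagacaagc
Car14 (chr3:95904636-95904935, minus strand): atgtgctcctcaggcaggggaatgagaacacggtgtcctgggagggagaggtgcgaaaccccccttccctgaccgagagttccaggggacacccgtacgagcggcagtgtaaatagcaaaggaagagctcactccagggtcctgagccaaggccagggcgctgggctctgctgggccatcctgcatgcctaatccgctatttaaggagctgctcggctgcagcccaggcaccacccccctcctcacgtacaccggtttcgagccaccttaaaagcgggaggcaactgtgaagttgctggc
In these windows TATAAA begins 32 bases before the start of Anxa1, and 207 bases before that of Aspn with a further match on the other strand 178 bases before, and the letters do not occur in the Car14 window. The G and C content was 31.0% for Aspn, 47.3% for Anxa1 and 61.0% for Car14, against a median of 59.7% over the 16701 windows of tested genes. TATAAA was found on either strand in 13.6% of all 32851 windows, in 8.05% of those of tested genes, in 11.3% of those of genes called higher and in 10.9% of those of genes called lower. The E-box CAGCTG, whose reverse complement is itself, was in 16.1% of the windows of tested genes, 21.6% of those called higher and 16.7% of those called lower. GGGCGG, the core of the GC box, was in 57.6, 50.8 and 46.8% of the same windows on either strand. TGACTCA, the site known for AP-1 factors, was in 3.8% of the windows of tested genes, 5.13% of those called higher and 3.86% of those called lower. None of these other motifs occurs in the windows shown. A match is a description of the letters, and no binding was measured.

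Over the whole comparison 2646 genes were called higher at E13.5 (13.1% of those tested) and 626 were called lower (3.09%). The median log2 fold change of all tested genes was 0.01, a value that the scaling of the libraries keeps near 0. Among the 8273 genes with a mean of at least 5 FPKM at a stage, 596 were called higher and 210 lower, with a median of -0.12. Protein-coding genes made up 2472 of the higher calls and 437 of the lower ones. With limma on log2(FPKM + 0.5) the counts were 1339 and 315, and on log2(FPKM + 0.1) they were 1899 and 535. With the 4 numbered libraries alone, a check chosen after seeing the data, they were 2849 and 843, of which 2440 and 539 were called in the full comparison.

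**Figure D2:**
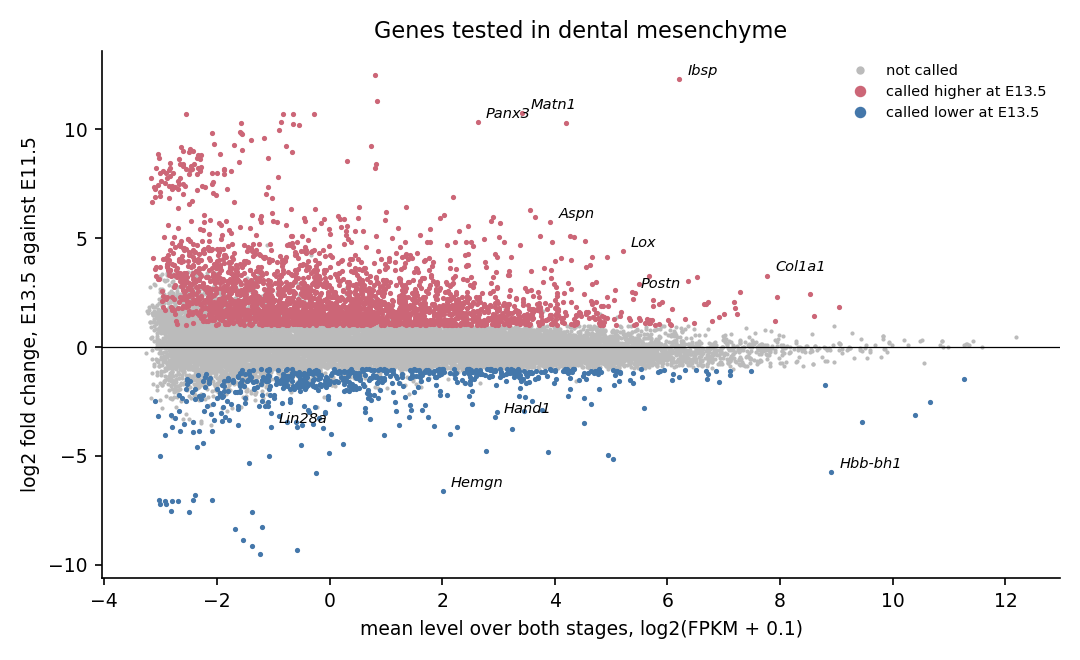
Log2 fold change of the 20271 tested genes against their mean level, log2(FPKM + 0.1), with the 2646 genes called higher at E13.5 in red, the 626 called lower in blue and the rest in grey. Fold changes of genes near 0 counts at a stage, which form the upper and lower left fringes, depend on the prior count of the fit.

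Among the 12 largest rises at a level of 5 FPKM or more, taken over genes with an established symbol and no overlap between the stages, were Ibsp, Matn1, Panx3, Phospho1 and Smpd3. Ibsp, which encodes bone sialoprotein, measured 0.0546, 0.0211 and 0 FPKM at E11.5 and 145, 201 and 95.9 FPKM at E13.5 and was called higher (adjusted p = 4.22e-06). Its deposited E11.5 counts were 11, 4 and 0, so the fitted log2 fold change of 12.31 rests on few counts and depends on the prior count. Matn1, a matrilin of cartilage, measured 0, 0.0314 and 0 FPKM at E11.5 and 17.3, 23.8 and 22.6 FPKM at E13.5 (adjusted p = 4.22e-06), and Panx3, a channel protein known from osteoblasts and maturing chondrocytes, measured 0, 0 and 0.0267 FPKM at E11.5 and 13.1, 14.9 and 8.56 FPKM at E13.5 (adjusted p = 8.8e-06). Phospho1, a phosphatase that starts matrix mineralization, rose from 0.0691 ± 0.0185 to 8.85 ± 3.53 FPKM (log2 fold change 6.87, SE 0.41, adjusted p = 1.11e-05). Smpd3, a sphingomyelin phosphodiesterase needed for bone and cartilage to mineralize, rose from 0.224 ± 0.0626 to 14.5 ± 5.19 FPKM (log2 fold change 5.97, SE 0.37, adjusted p = 1.29e-05). For Ibsp, Panx3, Phospho1 and Smpd3 the lowest E13.5 library was replicate 3, and for all 4 it still stood above every E11.5 library. The cartilage genes Cnmd, which encodes chondromodulin, and Cytl1, a secreted factor of chondrocytes, rose from 0.377 to 24.4 FPKM and from 0.2902 to 15.8 FPKM (log2 fold changes 5.96 and 5.70). The matrix genes Col14a1, a fibril-associated collagen, and Dpt, which encodes dermatopontin, rose from 0.2496 to 14.1 FPKM and 0.216 to 10.6 FPKM (log2 fold changes 5.80 and 5.54). The chemokine gene Ccl21a and Plac9b also rose (log2 fold changes 6.28 and 6.07), but both have near-identical copies in the mouse genome and are uncertain.

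Among the 12 largest falls at a level of 5 FPKM or more, taken over genes with an established symbol and no overlap between the stages, were Hemgn, Hbb-bh1, Foxd2, Hsd11b2 and Igdcc3. Hemgn, a nuclear protein of blood precursors, measured 6.19, 8.71 and 8.41 FPKM at E11.5 and 0.134, 0.0654 and 0.0326 FPKM at E13.5 (log2 fold change -6.60, SE 0.38, adjusted p = 9.99e-06), and the embryonic globin Hbb-bh1 measured 814, 1029 and 991 FPKM at E11.5 and 25.2, 16.2 and 12.8 FPKM at E13.5 (log2 fold change -5.73, SE 0.27, adjusted p = 4.26e-06). The transcription factor genes Foxd2 and Hand1 and the coactivator gene Cited1 fell from 8.07 to 0.519 FPKM, 13.6 to 1.49 FPKM and 41.8 to 3.799 FPKM (log2 fold changes -3.97, -3.22 and -3.48). Hsd11b2, the enzyme that inactivates glucocorticoids, fell from 6.51 ± 0.469 to 0.532 ± 0.157 FPKM (log2 fold change -3.63, SE 0.24, adjusted p = 1.7e-05), and Igdcc3, a membrane protein of the immunoglobulin superfamily, from 8.66 ± 2.298 to 0.688 ± 0.02997 FPKM (log2 fold change -3.68, SE 0.23, adjusted p = 1.26e-05). The genes of the 7SL and 7SK RNAs and of the RNase P RNA, which carry no poly(A) tail, were called lower, with a single library far above the rest. Rn7s1 measured 3.81, 26.6 and 160.1 FPKM at E11.5 and 1.89, 1.21 and 2.25 FPKM at E13.5, and E11.5 replicate 3 was that library. Without that library its log2 fold change was -3.11 in place of -5.12. Rn7s2, a near-identical copy, Rn7sk and Rpph1 were highest in the same library, with 3.23, 9.87 and 71.7 FPKM at E11.5 for Rn7sk and 7.03, 7.51 and 37.7 FPKM for Rpph1.

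All 13 small leucine-rich proteoglycans tested rose, with a median log2 fold change of 3.44 against 0.01 over all genes and 22.0% of all genes rising. These proteins sit on collagen fibrils and set their spacing. Dcn, decorin, measured 0.668, 1.11 and 1.43 FPKM at E11.5 and 31.4, 36.2 and 44.95 FPKM at E13.5 (log2 fold change 5.12, SE 0.25, adjusted p = 5.5e-06). Lum, lumican, rose from 9.53 ± 2.71 to 92.3 ± 12.2 FPKM (log2 fold change 3.26, SE 0.19, adjusted p = 1.05e-05), the highest E13.5 level of the group. Ogn, osteoglycin, rose from 1.86 ± 0.803 to 32.5 ± 2.59 FPKM (log2 fold change 4.11, SE 0.29, adjusted p = 2.37e-05), and Epyc, epiphycan, a member known from cartilage, from 0.125 ± 0.0984 to 2.41 ± 0.241 FPKM (log2 fold change 4.21, SE 0.50, adjusted p = 0.00032). The smallest fold of the group was that of Ecm2, from 0.172 to 0.682 FPKM (log2 fold change 1.95). Their summed FPKM was 20.2 to 32.8 in the E11.5 libraries and 234 to 296 in the E13.5 libraries, with no overlap.

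All 15 genes tested of a collagen list rose too, with a median of 2.89. The list holds fibrillar and fibril-associated collagens, and also chains of types VI, VIII and XV, which are neither. Col1a1, the main chain of type I collagen, measured 26.8, 43.95 and 49.2 FPKM at E11.5 and 317, 464 and 402 FPKM at E13.5 (log2 fold change 3.29, SE 0.22, adjusted p = 1.7e-05), and E11.5 replicate 1 was the lowest library of its stage, as was E13.5 replicate 1 of its own. Col3a1, the type III collagen of young connective tissue, rose from 81.6 ± 11.3 to 414 ± 59.5 FPKM (log2 fold change 2.32, SE 0.12, adjusted p = 6.73e-06) and reached a level like that of Col1a1. The type VI collagen genes Col6a1, Col6a2 and Col6a3, which form beaded filaments around cells, rose from 17.8 to 147 FPKM, 10.6 to 79.5 FPKM and 9.197 to 57.5 FPKM (log2 fold changes 3.03, 2.89 and 2.62). Col8a1 and Col5a3 rose from low levels, 0.153 to 3.29 FPKM and 0.128 to 1.36 FPKM. The gene with the smallest change was Col15a1, a basement membrane zone collagen, from 10.8 to 17.2 FPKM (log2 fold change 0.65). Col1a1, Col1a2 and Col3a1 are also bone and skin collagens, and the osteoblast genes given below rose in the same libraries.

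The enzymes that fold, trim and crosslink collagen rose with their substrates: 21 of 23 passed and none fell, with a median of 1.11. Besides Lox, its relatives Loxl1, Loxl2, Loxl3 and Loxl4 all rose, Loxl4 from 0.0781 ± 0.05804 to 2.12 ± 0.707 FPKM (log2 fold change 4.75, SE 0.51, adjusted p = 0.00018) and Loxl2 from 13.2 to 39.7 FPKM (log2 fold change 1.56). Adamts2, which removes the amino-terminal propeptide of procollagens, rose from 1.04 ± 0.207 to 7.83 ± 0.952 FPKM (log2 fold change 2.89, SE 0.15, adjusted p = 6.31e-06). Among the prolyl 4-hydroxylase chains P4ha3 rose from 2.91 ± 1.097 to 9.86 ± 0.1303 FPKM (log2 fold change 1.75, SE 0.22, adjusted p = 0.000422), and the collagen chaperone gene Serpinh1, the most abundant of the group, rose from 332 to 667 FPKM (log2 fold change 0.99). P3h2 and Pcolce, a prolyl 3-hydroxylase and an enhancer of the carboxy-terminal trimming of procollagen, did not pass, with log2 fold changes of 0.12 and -0.32.

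Of 18 matricellular genes, whose secreted products modulate cell and matrix contacts, 13 rose and 2 fell (median 1.93). Thbs2, thrombospondin 2, measured 0.536, 0.812 and 0.881 FPKM at E11.5 and 15.3, 15.3 and 12.6 FPKM at E13.5 (log2 fold change 4.26, SE 0.18, adjusted p = 4.22e-06). Tnc, the tenascin of condensing mesenchyme, rose from 10.1 to 42.5 FPKM (log2 fold change 2.06), and Sparc, a collagen-binding protein of bone and connective tissue, from 55.3 to 234 FPKM (log2 fold change 2.05). The CCN family members Ccn3 and Ccn4 rose from 0.134 ± 0.0207 to 1.59 ± 0.517 FPKM and from 1.34 ± 0.207 to 10.3 ± 1.23 FPKM, while Ccn1 did not pass (log2 fold change -0.18). Tnxb, tenascin X, stood below 1 FPKM in every library and lost its call without E13.5 replicate 2 or 3 (adjusted p = 0.0586 and 0.0881, against 0.0212 with all libraries). Its call was also lost without a filter, in edgeR (adjusted p = 0.0652) and in limma (adjusted p = 0.0979). The genes that fell were Smoc1, a calcium-binding matrix protein, from 18.3 to 6.73 FPKM (log2 fold change -1.47), and Tgfbi, from 39.1 to 30.8 FPKM (log2 fold change -0.37). Smoc2 rose at the same time, from 4.14 to 28 FPKM (log2 fold change 2.74).

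Elastic fibre and microfibril genes rose in 14 of 17 cases and fell in none (median 1.58). Eln, the elastin gene, measured 2.33, 3.78 and 3.67 FPKM at E11.5 and 31.03, 52.7 and 53.3 FPKM at E13.5 (log2 fold change 3.79, SE 0.25, adjusted p = 1.65e-05). Fbln5, a fibulin that tethers elastin to microfibrils, rose from 3.65 ± 0.596 to 14.4 ± 1.86 FPKM (log2 fold change 1.96, SE 0.13, adjusted p = 1.85e-05), and the fibrillin genes Fbn1 and Fbn2 from 8.74 to 27.5 FPKM and 18.8 to 39.2 FPKM. Mfap5 and Ltbp2, both microfibril proteins, rose from means of 0.0722 and 0.02999 FPKM to 1.48 and 0.553 FPKM. Mfap4, at 99.2 to 115 FPKM, did not pass, nor did Fbln1 or Emilin2.

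Genes of GAG synthesis rose at several steps, with lower list medians than those of the small proteoglycans and collagens. Of 27 genes for sulfate activation and GAG sulfation 19 rose and none fell, with a median of 0.76. Papss1, the other gene for the sulfate donor, rose from 30.6 ± 1.599 to 48.3 ± 1.96 FPKM (log2 fold change 0.63, SE 0.08, adjusted p = 0.00032), so it stayed above Papss2 in level at both stages while its fold change was much smaller. The chondroitin sulfotransferase gene Chst13 was listed at 0 counts in the 3 E11.5 libraries and at 1.27, 1.94 and 1.14 FPKM at E13.5. Against a floor of 3 counts per library this is at least 70.4-fold higher. Its relative Chst11 rose from 3.25 to 8.29 FPKM (log2 fold change 1.32) and Chst15 from 2.75 to 5.92 FPKM (log2 fold change 1.09). Among the heparan sulfate enzymes, Hs3st1, a 3-O-sulfotransferase, measured 0.5004, 0.659 and 0.804 FPKM at E11.5 and 4.37, 7.09 and 6.99 FPKM at E13.5 (log2 fold change 3.20, SE 0.25, adjusted p = 3.72e-05). Hs6st3 measured 0.0508, 0.0128 and 0.04196 FPKM at E11.5 and 0.257, 0.238 and 0.212 FPKM at E13.5, and its call (adjusted p = 0.0164) was lost without E11.5 replicate 2 or 3 or E13.5 replicate 2, at adjusted p = 0.0507 to 0.0626. Ndst1 and Ndst2, the broadly used N-deacetylase/N-sulfotransferases, did not pass (log2 fold changes 0.16 and 0.26), and the extracellular 6-O-sulfatase gene Sulf1 rose from 8.29 to 20.1 FPKM (log2 fold change 1.25) whereas Sulf2 did not pass (0.16).

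Of 23 genes for building the chains, 17 rose and none fell (median 0.71). The 4 linkage-region enzymes B4galt7, B3galt6, B3gat3 and Xylt2 did not pass, with log2 fold changes of 0.19 to 0.26, while Xylt1 rose from 1.03 to 2.42 FPKM (log2 fold change 1.19). The chain-starting enzyme of chondroitin sulfate Csgalnact1 rose from 0.29 ± 0.0452 to 2.499 ± 0.226 FPKM (log2 fold change 3.08, SE 0.19, adjusted p = 1.24e-05) and the chondroitin synthase gene Chsy3 from 0.174 ± 0.0434 to 1.196 ± 0.399 FPKM (log2 fold change 2.73, SE 0.33, adjusted p = 0.000342). The heparan sulfate polymerase genes Ext1 and Ext2 rose from 6.97 to 11.7 FPKM and 8.73 to 14.9 FPKM (log2 fold changes 0.72 and 0.74), and their relative Extl1 from 0.2903 to 1.15 FPKM (log2 fold change 1.97). Has2, the hyaluronan synthase of mesenchyme, measured 2.69, 3.09 and 3.11 FPKM at E11.5 and 12.4, 11.03 and 12.98 FPKM at E13.5 (log2 fold change 2.01, SE 0.10, adjusted p = 5.31e-06), and Has1 and Has3 did not pass.

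The larger proteoglycans followed with 17 of 22 rising and 2 falling (median 1.22). Acan, the aggrecan of cartilage, measured 0.2796, 0.439 and 0.482 FPKM at E11.5 and 13.4, 14.6 and 10.3 FPKM at E13.5 (log2 fold change 4.98, SE 0.22, adjusted p = 4.22e-06), and Cd44, a hyaluronan receptor, measured 0.178, 0.381 and 0.365 FPKM at E11.5 and 8.41, 8.48 and 9.72 FPKM at E13.5 (log2 fold change 4.82, SE 0.24, adjusted p = 5.97e-06). Spock2 and Cspg4, a testican and the NG2 proteoglycan of pericytes and precursor cells, rose from 0.5602 to 4.79 FPKM and 0.684 to 4.17 FPKM (log2 fold changes 3.06 and 2.58). Within the glypicans Gpc4 rose from 5.22 to 27.3 FPKM (log2 fold change 2.35), Gpc2 fell from 36.2 to 19.5 FPKM (-0.91) and the abundant Gpc3 did not pass (-0.11). Gpc1 fell by a small amount (log2 fold change -0.28), and it no longer passed without E11.5 replicate 1, 2 or 3 or E13.5 replicate 3, at an adjusted p of up to 0.0941. Syndecans Sdc2, Sdc3 and Sdc4 rose and Sdc1, also an epithelial syndecan, did not pass (0.07).

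**Figure D3:**
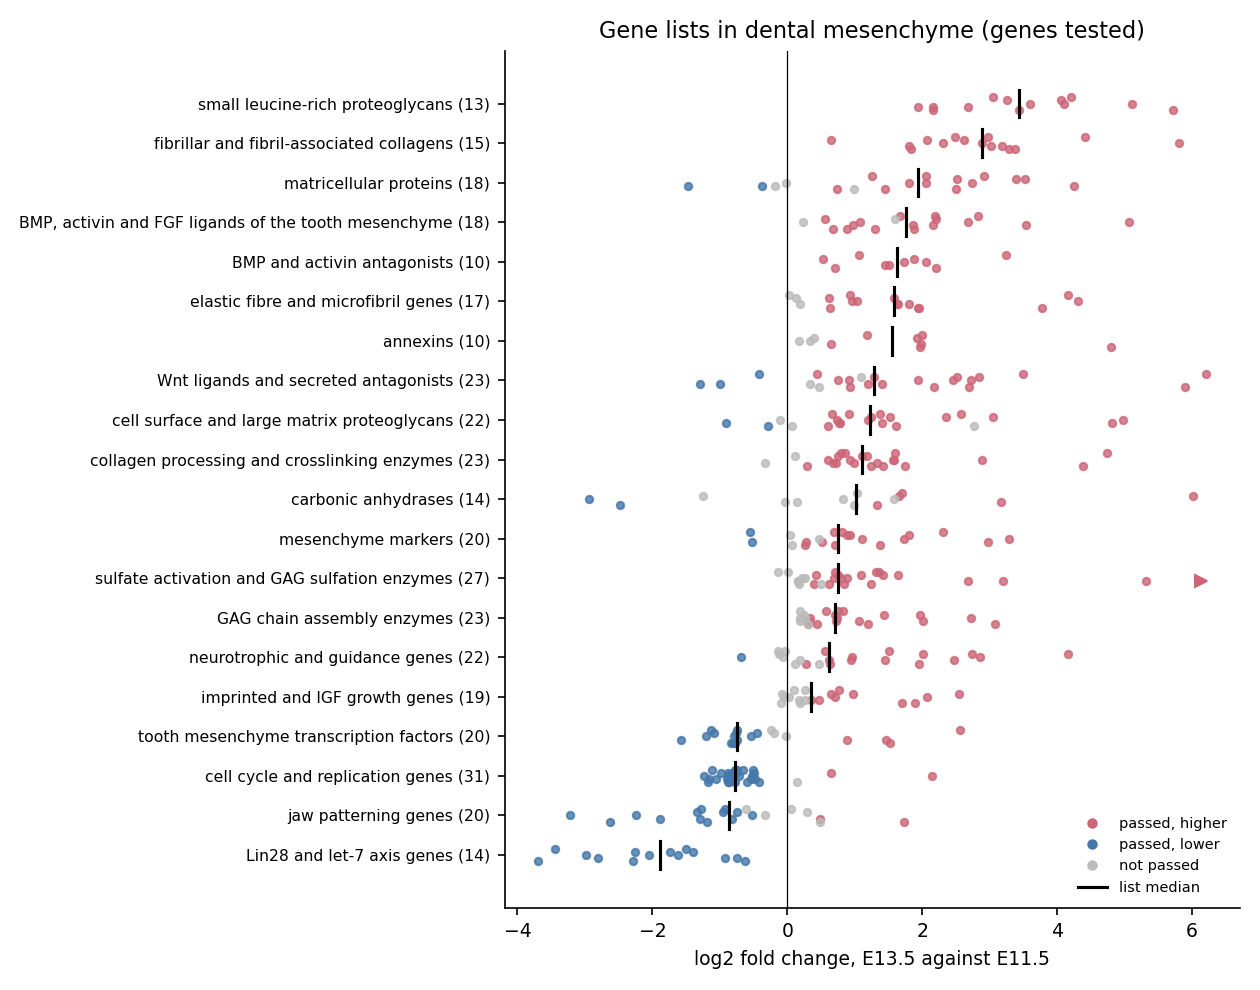
Log2 fold change of every tested member of 20 gene lists, in red where it rose, blue where it fell and grey where it did not pass, with a black line at the list median and the number tested in brackets. Matrix lists lie to the right of 0 and the Lin28 and let-7 axis, the cell cycle and the transcription factor lists to its left. The arrowhead is Chst13 at its lower bound, since its E11.5 counts were 0.

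The family of Anxa1 mostly rose, and that of Car14 moved in both directions. Of 10 annexins 7 rose and none fell. Anxa2, Anxa5 and Anxa6, the abundant members, rose from 41.1 ± 12.5 to 164 ± 15.3 FPKM, 22.8 ± 1.597 to 92.6 ± 18.6 FPKM and 40.1 ± 7.57 to 159.6 ± 24.1 FPKM, with log2 fold changes of 1.98, 1.99 and 1.97, while Anxa3, Anxa8 and Anxa9 did not pass. Of 14 carbonic anhydrases 5 rose and 2 fell, against 22.0% of all genes rising and 17.0% falling. Car2, the cytosolic enzyme of red cells and osteoclasts, fell from 20.2 ± 2.89 to 3.66 ± 0.522 FPKM (log2 fold change -2.48, SE 0.15, adjusted p = 1.19e-05), and with Car14 it was the most abundant of the list at E11.5. Car3, known from muscle and fat, rose from 0.609 ± 0.171 to 5.59 ± 0.853 FPKM (log2 fold change 3.17, SE 0.23, adjusted p = 2.87e-05). Car10, an inactive relative, was at 12, 4 and 0 counts at E11.5 and at 0.635, 0.482 and 0.839 FPKM at E13.5.

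Signal genes of the mesenchyme rose together with their inhibitors. Of 18 BMP, activin, TGF-beta and FGF ligand genes 16 rose and none fell (median 1.77). Gdf10, a BMP3-like ligand, rose from 0.449 ± 0.135 to 15.4 ± 3.35 FPKM (log2 fold change 5.07, SE 0.25, adjusted p = 4.95e-06). Bmp3 and Bmp6 rose from 0.218 ± 0.156 to 2.56 ± 0.129 FPKM and 0.811 ± 0.275 to 5.84 ± 1.09 FPKM, with log2 fold changes of 3.55 and 2.83. Bmp4, the BMP best known from dental mesenchyme, was at 12.6 ± 3.14 to 15 ± 0.867 FPKM and did not pass (log2 fold change 0.24, adjusted p = 0.268). Inhba, the activin chain needed for most teeth to pass the bud stage, rose from 0.8098 ± 0.127 to 3.703 ± 0.4 FPKM (log2 fold change 2.16, SE 0.16, adjusted p = 3.24e-05), and Inhbb from 0.1604 ± 0.0541 to 1.06 ± 0.315 FPKM (log2 fold change 2.68, SE 0.34, adjusted p = 0.000455). Of the FGFs, Fgf7, Fgf10 and Fgf18 rose from 0.848 to 3.98 FPKM, 4.07 to 6.66 FPKM and 2.81 to 10.3 FPKM, and Fgf3 stayed below 1 FPKM and did not pass (adjusted p = 0.177).

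All 10 BMP and activin antagonists rose, with a median of 1.62. Nog, which encodes the secreted BMP inhibitor noggin, measured 0.898, 1.58 and 1.36 FPKM at E11.5 and 5.87, 6.16 and 6.05 FPKM at E13.5 (log2 fold change 2.21, SE 0.22, adjusted p = 0.000112). Chrdl1 rose from 0.483 ± 0.211 to 2.09 ± 0.155 FPKM and Grem1 from 1.07 ± 0.187 to 3.99 ± 0.473 FPKM. For Grem1 the call was lost in the fit of all 12 libraries (adjusted p = 0.0558). Sostdc1, which limits tooth number in the mouse, rose from 9.85 to 20.9 FPKM (log2 fold change 1.06).

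Wnt ligands and secreted regulators rose in 17 of 23 cases and fell in 3 (median 1.29). Wnt11, a ligand of the non-canonical branch, measured 0.738, 1.698 and 1.53 FPKM at E11.5 and 8.24, 9.23 and 11.6 FPKM at E13.5 (log2 fold change 2.85, SE 0.27, adjusted p = 0.000101), and Wnt5a, the most abundant ligand of the list, rose from 11.6 to 28.7 FPKM (log2 fold change 1.29). Wnt16 passed but stayed below 1 FPKM in every library. The secreted antagonists Sfrp2, Dkk2 and Wif1 rose from 45.8 to 266 FPKM, 5.69 to 26.3 FPKM and 2.02 to 13.47 FPKM (log2 fold changes 2.51, 2.18 and 2.72). Sfrp4 measured 0.0379, 0.0515 and 0.0548 FPKM at E11.5 and 4.88, 3.79 and 2.64 FPKM at E13.5 (log2 fold change 6.22, SE 0.31, adjusted p = 5.97e-06), and Sfrp5 had counts in a single E11.5 library and 1.23, 1.52 and 2.21 FPKM at E13.5. Rspo2, an amplifier of Wnt signals, fell from 11.8 to 4.88 FPKM (log2 fold change -1.3), as did Frzb (-0.99) and Wnt5b (-0.42).

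Growth and guidance genes changed less evenly. Of 19 imprinted and IGF genes 10 rose and none fell (median 0.35). Igf1 measured 7.67, 7.28 and 7.67 FPKM at E11.5 and 24.9, 23.9 and 26.3 FPKM at E13.5 (log2 fold change 1.70, SE 0.08, adjusted p = 4.84e-06), and the IGF-binding protein genes Igfbp3, Igfbp5 and Igfbp7 rose from 22.3 to 84.7 FPKM, 39.95 to 171 FPKM and 0.909 to 5.43 FPKM (log2 fold changes 1.9, 2.08 and 2.55). The imprinted transcripts H19, Dlk1, Meg3, Peg3 and Mest did not pass, with log2 fold changes of -0.08 to 0.26. Among 22 neurotrophic and axon guidance genes 14 rose and 1, Ntf3, fell (log2 fold change -0.69). The class 3 semaphorins Sema3c, Sema3d and Sema3e, secreted guidance cues, rose from 0.971 to 5.57 FPKM, 0.438 to 3.24 FPKM and 0.0439 to 0.841 FPKM, and Sema3a, which keeps axons out of the early tooth germ, did not pass (log2 fold change 0.12). Gdnf, a ligand of sensory and enteric neurons, rose from 0.163 ± 0.0504 to 1.11 ± 0.304 FPKM (log2 fold change 2.74, SE 0.33, adjusted p = 0.000306).

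Transcription factor genes of dental mesenchyme went the opposite way to the matrix. Of 20 listed, 4 rose and 13 fell, with a median of -0.75, against 17.0% of all genes falling. Msx1, needed for teeth to pass the bud stage, fell from 57.2 ± 12.4 to 33.97 ± 6.18 FPKM (log2 fold change -0.77, SE 0.18, adjusted p = 0.0083), and Msx2 measured 8.97, 8.08 and 7.59 FPKM at E11.5 and 3.38, 2.69 and 2.37 FPKM at E13.5 (log2 fold change -1.58, SE 0.17, adjusted p = 0.000195). Barx1, the homeobox gene of the molar field and the most abundant of the list, fell from 157 ± 35.2 to 74.7 ± 15 FPKM (log2 fold change -1.09, SE 0.17, adjusted p = 0.00132). The distal-less genes Dlx1, Dlx2, Dlx5 and Dlx6 fell by like amounts, with log2 fold changes of -0.75, -0.78, -0.75 and -0.74, and the LIM genes Lhx6 and Lhx8 with -1.12 and -0.83. Pax9 was at 4.92 ± 1.33 to 4.92 ± 0.311 FPKM and did not pass (log2 fold change -0.02, SE 0.17, adjusted p = 0.948). The genes that rose were Mef2c, also a muscle and endothelial factor, which measured 1.15, 1.196 and 1.25 FPKM at E11.5 and 8.296, 6.97 and 6.46 FPKM at E13.5 (log2 fold change 2.57, SE 0.12, adjusted p = 4.22e-06), Osr2, which bounds the molar field, from 7.87 to 21.9 FPKM (log2 fold change 1.46), Tfap2b from 1.28 to 3.77 FPKM (1.52) and the bone factor Runx2 from 5.41 to 10.2 FPKM (0.89). Tfap2b was higher in epithelium, with means of 8.58 FPKM at E11.5 and 31.3 FPKM at E13.5. Its highest E13.5 mesenchyme library was replicate 1, as for Krt5 and Krt14 below.

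Jaw patterning genes fell in 13 of 20 cases and rose in 2 (median -0.87). Hand1, a factor of the distal midline of the mandible, measured 11.8, 14.03 and 15.1 FPKM at E11.5 and 1.29, 1.58 and 1.58 FPKM at E13.5 (log2 fold change -3.22, SE 0.14, adjusted p = 4.22e-06), and its relative Hand2 fell from 67.5 to 40.9 FPKM (log2 fold change -0.74). The forkhead genes Foxd1, Foxf1 and Foxf2 fell from 9.799 to 1.605 FPKM, 16.2 to 4.48 FPKM and 16.9 to 3.62 FPKM (log2 fold changes -2.63, -1.88 and -2.24), and Gsc, goosecoid, from 47.5 to 19.6 FPKM (-1.29). Edn1 and Ednra, the endothelin ligand and its receptor in jaw mesenchyme, rose from 0.286 to 0.965 FPKM and 13.1 to 18.9 FPKM, but Ednra no longer passed without E11.5 replicate 2 or 3 or E13.5 replicate 2, at an adjusted p of up to 0.0568. These genes mark regions of the mandible, and the piece dissected differed between the stages.

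Every tested gene of the Lin28 and let-7 axis fell. Lin28a and Lin28b are RNA-binding proteins that block the maturation of let-7 miRNAs, and most other members of the list are known let-7 targets or partners of early embryonic cells. All 14 of 14 fell, with a median of -1.89, and their summed level was 423 to 468 FPKM at E11.5 and 165 to 168 FPKM at E13.5. Lin28b measured 3.11, 2.09 and 2.38 FPKM at E11.5 and 0.489, 0.247 and 0.372 FPKM at E13.5 (log2 fold change -2.81, SE 0.27, adjusted p = 0.000111), and Lin28a 1.07, 0.462 and 0.608 FPKM at E11.5 and 0.0302, 0.0352 and 0.09897 FPKM at E13.5 (log2 fold change -3.69, SE 0.54, adjusted p = 0.000857). Trim71 and Sall4, both of early embryonic cells, fell from 1.49 ± 0.435 to 0.194 ± 0.0663 FPKM and 1.03 ± 0.155 to 0.09502 ± 0.0434 FPKM, with log2 fold changes of -2.98 and -3.44. Among the abundant members, Hmga2, an architectural chromatin protein, fell from 106 ± 9.52 to 41.03 ± 6.805 FPKM (log2 fold change -1.40, SE 0.14, adjusted p = 0.000144), Hmga1 from 182 ± 8.27 to 60.5 ± 8.92 FPKM (log2 fold change -1.61, SE 0.11, adjusted p = 2.36e-05) and Igf2bp1, an mRNA-binding protein, from 31.4 ± 0.843 to 11.3 ± 0.608 FPKM (log2 fold change -1.51, SE 0.08, adjusted p = 8.75e-06). Mycn, the embryonic MYC gene, fell from 18.1 ± 1.46 to 3.799 ± 0.818 FPKM (log2 fold change -2.28, SE 0.17, adjusted p = 3.24e-05).

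Of the mature let-7 miRNAs listed by RefSeq all but let-7j share the seed that pairs with such targets, and they were not measured in these libraries, which were made from poly(A) RNA. The RefSeq sequences (GRCm38.p6) of a pair of them are shown with the seed, bases 2 to 8, in capitals, followed by the 3′ UTR stretch around the match nearest the stop codon in 4 list members, with the 7 matching bases CTACCTC in capitals.
let-7g-5p (chr9:106178846-106178867, plus strand): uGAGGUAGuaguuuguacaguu
let-7i-5p (chr10:122985698-122985719, minus strand): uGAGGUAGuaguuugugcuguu
Lin28b site: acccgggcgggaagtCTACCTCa
Hmga2 site: gccgacattcaatttCTACCTCa
Trim71 site: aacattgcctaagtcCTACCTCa
Igf2bp1 site: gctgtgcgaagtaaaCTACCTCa
Each of these 4 genes has 4 such matches in its longest annotated 3′ UTR (GENCODE M21, GRCm38), on the sense strand, and 11 of the 14 members have at least 1. Sall1, Mycn and Dusp9 have none and fell with the rest (log2 fold changes -1.73, -2.28 and -2.26). Of the 15472 tested genes with an annotated 3′ UTR, 10.4% have a match. The list was drawn up from known targets, so its share of matches is no independent result. Over all tested genes with an annotated 3′ UTR the median log2 fold change was 0.06 for the 13866 genes with none, 0.09 for the 1410 with 1, 0.01 for the 168 with 2 and 0.00 for the 28 with 3 or more. The share that fell was 19.8% with no match, 20.1% with 1 and 23.8% with 2. Of the 28 genes with 3 or more, among them the 4 shown, 7 rose and 11 fell (39.3%). Their UTRs were also longer, with a median of 4460.0 bases against 1050.0 for genes with no match.

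Most cell cycle and replication genes fell. Of 31 tested 28 fell and 2 rose, with a median of -0.77. Mki67, the proliferation antigen, measured 58.7, 56.3 and 57.05 FPKM at E11.5 and 35.9, 21.2 and 20.4 FPKM at E13.5 (log2 fold change -1.18, SE 0.21, adjusted p = 0.00216), and E13.5 replicate 1 was the highest of its stage. Rrm2, a subunit of ribonucleotide reductase, fell from 95.8 ± 5.47 to 41.5 ± 0.761 FPKM (log2 fold change -1.24, SE 0.09, adjusted p = 2.55e-05), and Bub1, a spindle checkpoint kinase, from 27.04 ± 3.601 to 12.4 ± 2.15 FPKM (log2 fold change -1.16, SE 0.16, adjusted p = 0.000658). The replication licensing genes Mcm2 to Mcm7 fell with log2 fold changes of -1.12 to -0.49. The cell cycle inhibitors of the list went the other way: Cdkn1a measured 0.952, 2.16 and 2.74 FPKM at E11.5 and 6.39, 9.68 and 10.02 FPKM at E13.5 (log2 fold change 2.14, SE 0.33, adjusted p = 0.00114), and Cdkn1c rose from 481 to 764 FPKM (log2 fold change 0.64). Cdkn1c no longer passed without E13.5 replicate 2 or 3, at an adjusted p of up to 0.0663.

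Marker lists of other cells of the jaw rose at E13.5 in nearly all cases, and their part in the results above was not tested. Of 13 osteoblast genes 11 rose (median 3.49), with a summed level of 23.1, 26.4 and 26.03 FPKM at E11.5 and 267, 334 and 179 FPKM at E13.5. Sp7, the osteoblast transcription factor, rose from 1.93 to 21.9 FPKM, Alpl, alkaline phosphatase, from 2.35 to 27.9 FPKM, and Ifitm5, a membrane protein of mineralizing osteoblasts, from 0.7697 to 19.9 FPKM. Bglap, the osteocalcin gene, did not pass (adjusted p = 0.296). Dmp1, a matrix protein of dentin and bone, was at 0, 7 and 15 counts at E11.5 and 0.479, 0.785 and 0.553 FPKM at E13.5.

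Chondrocyte genes rose in 15 of 17 cases (median 3.66), and their summed level was 98.3 to 118 FPKM at E11.5 and 365 to 457 FPKM at E13.5. Col11a2, a collagen chain of cartilage, measured 0.404, 0.877 and 0.926 FPKM at E11.5 and 25, 31.6 and 20.6 FPKM at E13.5 (log2 fold change 5.11, SE 0.31, adjusted p = 1.24e-05), and Col2a1, its main collagen, rose from 45.01 to 113 FPKM (log2 fold change 1.3). Snorc, a cartilage membrane proteoglycan, had 3 counts in all at E11.5 and stood at 0.746, 2.202 and 1.45 FPKM at E13.5. The chondrocyte master gene Sox9 did not pass, at 9.13 ± 2.03 to 9.27 ± 0.992 FPKM. Sox5 fell by a small amount (log2 fold change -0.52), and it no longer passed without E11.5 replicate 1 or 2 or E13.5 replicate 2 or 3.

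Skeletal muscle markers rose in 12 of 15 cases (median 3.18), with summed levels of 27.1, 74.1 and 80.9 FPKM at E11.5 and 294, 468 and 568 FPKM at E13.5. Acta1, skeletal actin, measured 0.198, 1.44 and 1.83 FPKM at E11.5 and 18.6, 44.9 and 53.5 FPKM at E13.5 (log2 fold change 5.07, SE 0.67, adjusted p = 0.000524), and Mylpf, a fast myosin light chain, 1.88, 4.02 and 3.76 FPKM at E11.5 and 32.3, 65.4 and 74.8 FPKM at E13.5 (log2 fold change 4.12, SE 0.36, adjusted p = 6.99e-05). Replicate 1 was the lowest library of its stage in both genes and in the sum. Myf5, the early myogenic factor, did not pass, while Myog, the factor of differentiating myoblasts, rose from 10.2 to 50.6 FPKM (log2 fold change 2.31).

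Macrophage and leukocyte markers rose in all 11 cases (median 2.05), with sums of 10.2, 16.9 and 16.9 and 31.2, 65.2 and 80.4 FPKM. Mrc1, the mannose receptor of tissue macrophages, rose from 0.569 ± 0.0545 to 4.14 ± 1.02 FPKM (log2 fold change 2.83, SE 0.21, adjusted p = 2.69e-05), and the complement gene C1qa from 1.84 ± 0.749 to 8.82 ± 4.48 FPKM (log2 fold change 2.23, SE 0.44, adjusted p = 0.00423). Replicate 1 was again the lowest sum at both stages. Of 14 endothelial markers 10 rose (median 0.58), among them Tek, an angiopoietin receptor, from 3.16 ± 0.198 to 6.58 ± 0.177 FPKM (log2 fold change 1.03, SE 0.10, adjusted p = 0.000101), and Erg from 4.33 ± 0.546 to 9.22 ± 0.473 FPKM, whose call was lost in the fit of all 12 libraries (adjusted p = 0.0767). Pericyte and smooth muscle markers rose in 8 of 9 cases, Tagln from 1.59 ± 0.257 to 12.7 ± 3.04 FPKM and Acta2 from 19.5 ± 8.73 to 87.6 ± 24.6 FPKM, and Notch3 fell (-0.37).

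Of 8 Schwann cell and glial markers 6 rose (median 1.34), with Sox10, a transcription factor of neural crest and glia, from 2.196 to 7.85 FPKM and Erbb3, a neuregulin receptor, from 2.68 to 7.38 FPKM. S100b was at 4, 0 and 12 counts at E11.5 and 1.85, 2.94 and 3.03 FPKM at E13.5. All 4 of 4 melanocyte markers rose, Pmel from 0.209 to 1.81 FPKM and Mitf from 0.161 to 0.709 FPKM, while Dct and Tyr stayed below 1 FPKM. Of 12 neuron markers 5 rose and 7 did not pass, with sums of 58.2, 45.4 and 48.7 FPKM at E11.5 and 73.8, 82.7 and 121 FPKM at E13.5. Those that rose included the neurofilament genes Nefl from 2.91 ± 0.527 to 15.1 ± 2.74 FPKM and Nefm from 2.67 ± 0.556 to 6.87 ± 2.42 FPKM and the growth-cone gene Stmn2 from 0.585 ± 0.372 to 5.49 ± 1.66 FPKM. For Nefm the call was lost in the fit of all 12 libraries (adjusted p = 0.0823). The count of neuron markers that rose depended on the libraries: without E11.5 replicate 1 it was 8, and with the numbered libraries alone 10. Prph, peripherin, measured 0.235, 0 and 0.0807 FPKM at E11.5 and 0.409, 1.37 and 6.697 FPKM at E13.5, and its call (adjusted p = 0.0168) was lost without E11.5 replicate 3 or E13.5 replicate 3. Without a filter this call was also lost, in edgeR (adjusted p = 0.0578) and in limma (adjusted p = 0.137). With limma on log2(FPKM + 1) it was lost too (adjusted p = 0.0702).

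Epithelial keratins and junction genes rose in 15 of 23 cases (median 1.17), and the summed level was 37.8, 39.1 and 42.9 FPKM at E11.5 and 148, 104 and 110.5 FPKM at E13.5. In the epithelium libraries the same sum was 352 to 397 FPKM at E11.5 and 777 to 3764 FPKM at E13.5. The basal keratin gene Krt5 measured 4.25, 5.54 and 5.83 FPKM at E11.5 and 47.5, 26.97 and 26.96 FPKM at E13.5 (log2 fold change 2.68, SE 0.24, adjusted p = 6.99e-05), and Krt14, its partner, 1.83, 3.73 and 4.18 FPKM at E11.5 and 30.01, 13.03 and 15.1 FPKM at E13.5 (log2 fold change 2.56, SE 0.37, adjusted p = 0.000862). E13.5 replicate 1 was the highest library for both. Krt8, Krt18, Cldn6 and Trp63 were among the genes that did not pass.

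Hox genes, which the first pharyngeal arch is known to lack, rose in 11 of 13 tested, with summed levels of 1.57, 2.64 and 2.12 FPKM at E11.5 and 12.2, 21.4 and 27.6 FPKM at E13.5. Hoxa2, the gene of the second arch, rose from 1.05 ± 0.462 to 7.55 ± 3.41 FPKM (log2 fold change 2.82, SE 0.43, adjusted p = 0.0011), and Hoxd1 from 0.208 ± 0.187 to 4.12 ± 0.877 FPKM (log2 fold change 4.31, SE 0.83, adjusted p = 0.0036). Hoxc4 and Hoxa5 were listed at 0 counts in the E11.5 libraries and at 0.722, 0.785 and 1.298 and 0.167, 0.248 and 0.205 FPKM at E13.5, which against a floor of 3 counts per library is a log2 fold change of at least 6.13 and at least 3.53. Hoxc5 and Hoxd4 had 24 and 3 counts in all at E11.5 and stood at 1.13, 1.87 and 2.98 and 0.593, 0.577 and 1.05 FPKM at E13.5. The sum in mesenchyme was lowest in replicate 1 at both stages. The same genes summed to 13.15 to 20.3 FPKM in the E11.5 epithelium and 21.27 to 28.96 FPKM in the E13.5 epithelium.

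Red cell genes fell and the globins changed in kind. Of 13 tested 9 fell and 2 rose (median -2.32). The embryonic globins fell, with Hba-x at 789, 1470.0 and 1576 FPKM at E11.5 and 120.0, 120.5 and 122 FPKM at E13.5 (log2 fold change -3.42, SE 0.21, adjusted p = 1.38e-05) and Hbb-y from 3613 to 1314 FPKM (log2 fold change -1.47). The adult beta globins rose, Hbb-bs from 117 ± 63.3 to 624 ± 297 FPKM (log2 fold change 2.41, SE 0.50, adjusted p = 0.00499) and Hbb-bt from 211 ± 104 to 565 ± 248 FPKM (log2 fold change 1.41, SE 0.42, adjusted p = 0.0277). The call of Hbb-bt was lost without E11.5 replicate 2 or E13.5 replicate 2 or 3, at an adjusted p of up to 0.112. The adult alpha globins Hba-a1 and Hba-a2, near-identical copies, did not pass (log2 fold changes -0.08 and 0.10). Slc4a1, which encodes the red cell anion exchanger band 3, fell from 23.9 to 3.302 FPKM (log2 fold change -2.88). The summed level of the list was 4598, 9357 and 9899 FPKM at E11.5 and 2848, 5393 and 4968 FPKM at E13.5, and replicate 1 held the least at both stages.

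**Figure D4:**
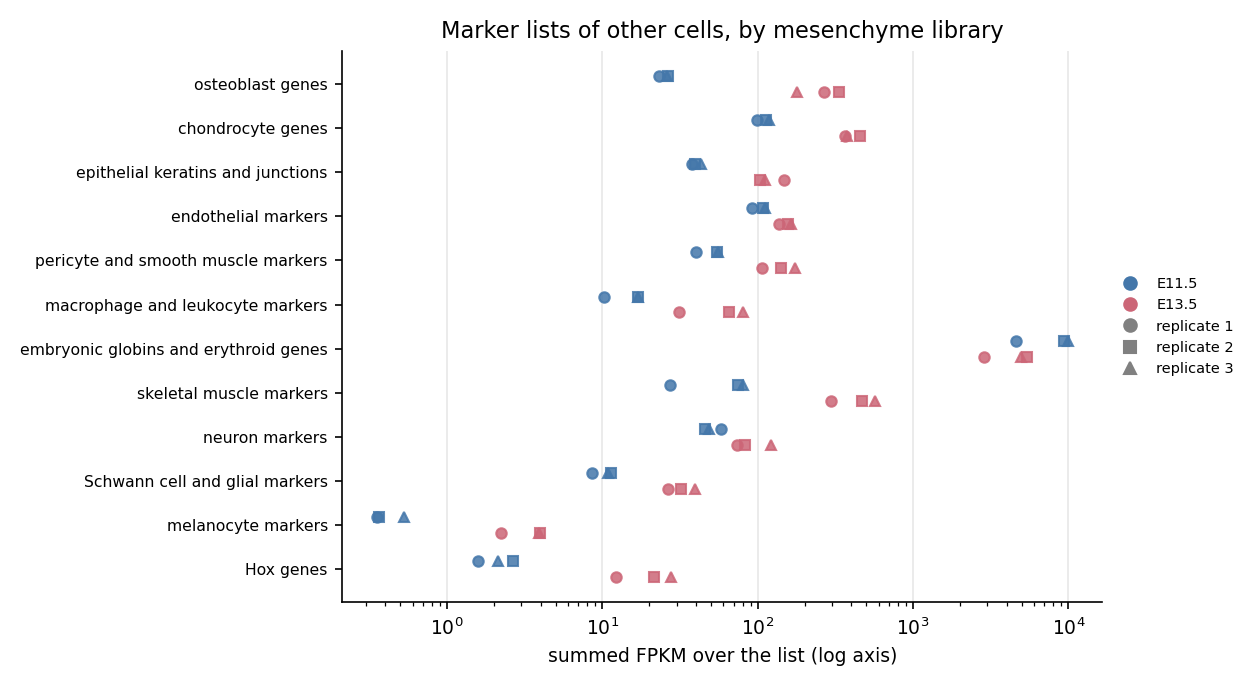
Summed FPKM of 12 marker lists (log axis) in each mesenchyme library, E11.5 in blue and E13.5 in red, with a symbol for each replicate. All lists but that of embryonic globins and erythroid genes were higher in every E13.5 library than in any E11.5 library, and the erythroid sums of the stages overlapped.

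Among the mesenchyme libraries E13.5 replicate 1 was the highest in stress-related transcripts. The summed level of 13 immediate early and heat shock genes was 170.3, 199 and 218 FPKM at E11.5 and 446, 145 and 148 FPKM at E13.5. In the epithelium it was highest in E13.5 replicate 3, at 844 FPKM, which is also the library of its group without a number. Fos measured 15.5, 18.8 and 22.2 FPKM at E11.5 and 110.1, 19.7 and 19.2 FPKM at E13.5 and did not pass (adjusted p = 0.109). Of the 13 genes 3 rose (against 22.0% of all genes), Ier3 and the near-identical copies Hspa1a and Hspa1b, and 2 fell (against 17.0%), Hsph1 and Dnajb1. The number that rose was 6 without E13.5 replicate 3, and the number that fell was 1 without E11.5 replicate 2 or 3 or E13.5 replicate 2 or 3 and 5 with the numbered libraries alone. Xist, the RNA of the inactive X chromosome, measured 40.1, 21.01 and 19.9 FPKM at E11.5 and 51.5, 15.5 and 12.1 FPKM at E13.5 and did not pass (adjusted p = 0.929), and the Y-linked gene Ddx3y did not pass either (adjusted p = 0.311). Of the 5 sex-linked genes none passed, and 1 was lower without E13.5 replicate 3. With the numbered libraries alone Xist was lower (log2 fold change -0.56, adjusted p = 0.0118).

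Whether a change in mesenchyme differed from the change in epithelium was tested as an interaction over all 12 libraries. Of 22110 genes tested, 42 changed more positively in mesenchyme (0.19%) and 3 more negatively (0.0136%) at an adjusted p under 0.05. None of the 6 stage markers was among them, with interaction adjusted p from 0.132 to 1.0. That does not show that the markers changed alike in both tissues. For Papss2 the interaction was 3.35 (SE 0.88, adjusted p = 0.132) and for Lox 2.28 (SE 0.62, adjusted p = 0.143). In E13.5 epithelium Papss2 measured 2.52, 0.721 and 5.61 FPKM and Lox 16.5, 10.6 and 49.4 FPKM. In epithelium replicate 3 is the library whose name carries no number at both stages. Without E13.5 epithelium replicate 3 the interaction gave 2126 and 970 genes, and in that library the mesenchyme markers summed to 1236 FPKM against 479 and 311 in its partners and the keratins and junction genes to 777 against 2567 and 3764 FPKM. Without any other single library it gave 14 to 106 and 1 to 6 genes, with 14 and 2 without E13.5 mesenchyme replicate 2 and 106 and 4 without E11.5 epithelium replicate 3. The E11.5 epithelium libraries held mesenchyme markers at 448 to 590.4 FPKM, against 642 to 803 FPKM in the E11.5 mesenchyme. Neuron markers summed to 238, 236 and 83.6 FPKM in the E11.5 and 52.1, 25.8 and 74.8 FPKM in the E13.5 epithelium, and Schwann cell and glial markers to 51.4, 50.03 and 23.5 FPKM and 31.2, 27.7 and 26.2 FPKM. The part of these markers in the interaction was not tested. Replicates 1 and 2 of the E11.5 epithelium differed by a median of 3.98%, the least of any pair within a group.

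Of the 806 genes called in mesenchyme with a mean of at least 5 FPKM at a stage, 15 passed the interaction, all with a more positive change in mesenchyme. The 5 of these with the largest interaction were Fabp7, Sgms2, Mgp, Dok5 and Aldh1a3. Dok5, a docking protein of receptor tyrosine kinases, measured 0.934, 1.13 and 0.985 FPKM at E11.5 and 5.06, 6.25 and 7.21 FPKM at E13.5 in mesenchyme, and 4.48, 4.84 and 4.59 FPKM at E11.5 and 2.73, 3.48 and 4.17 FPKM at E13.5 in epithelium (interaction 3.02, SE 0.29, adjusted p = 0.00166). It rose in mesenchyme, while in epithelium every E13.5 library stood below every E11.5 library. Sgms2, a sphingomyelin synthase, measured 0.216, 0.221 and 0.202 FPKM at E11.5 and 6.89, 7.72 and 4.15 FPKM at E13.5 in mesenchyme, and 0.226, 0.2298 and 0.495 FPKM and then 0.766, 0.826 and 1.15 FPKM in epithelium (interaction 3.36, SE 0.47, adjusted p = 0.0156). Mgp, the matrix Gla protein that limits mineralization, measured 0.583, 0.391 and 0.543 FPKM at E11.5 and 7.16, 10.5 and 12.2 FPKM at E13.5 in mesenchyme, and 1.93, 2.59 and 2.69 FPKM and then 6.65, 2.73 and 7.16 FPKM in epithelium (interaction 3.08, SE 0.50, adjusted p = 0.0348). In epithelium the Sgms2 libraries of the stages did not overlap, whereas the lowest E13.5 level of Mgp was close to the highest E11.5 level. Aldh1a3, an enzyme that makes retinoic acid, measured 0.314, 0.493 and 0.477 FPKM at E11.5 and 4.54, 5.59 and 5.67 FPKM at E13.5 in mesenchyme, and 1.54, 1.58 and 1.06 FPKM and then 2.95, 2.47 and 3.77 FPKM in epithelium (interaction 2.50, SE 0.32, adjusted p = 0.0094). Fabp7, a fatty acid-binding protein of glia, measured 3.39, 2.12 and 1.63 FPKM at E11.5 and 4.69, 4.55 and 8.38 FPKM at E13.5 in mesenchyme, and 30.8, 31.3 and 11.9 FPKM and then 4.15, 1.94 and 4.83 FPKM in epithelium (interaction 4.04, SE 0.64, adjusted p = 0.0316). It is one of the glial markers summed above. In epithelium every E13.5 library stood below every E11.5 library. Its rise in mesenchyme was small (log2 fold change 1.24), and the call was lost without E11.5 replicate 2 or 3 or E13.5 replicate 3, at adjusted p = 0.0595 to 0.0780. The call was also lost without a filter, in edgeR (adjusted p = 0.0552) and in limma (adjusted p = 0.0528). The proteoglycan genes Gpc4 and Spock2, Igfbp5, which encodes an IGF-binding protein, the neurotrophic factor gene Gdnf and the smooth muscle gene Tagln, given above, also passed (interactions 1.42, 3.08, 1.19, 3.82 and 2.07), with Spock2 and Gdnf under 5 FPKM.

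**Figure D5:**
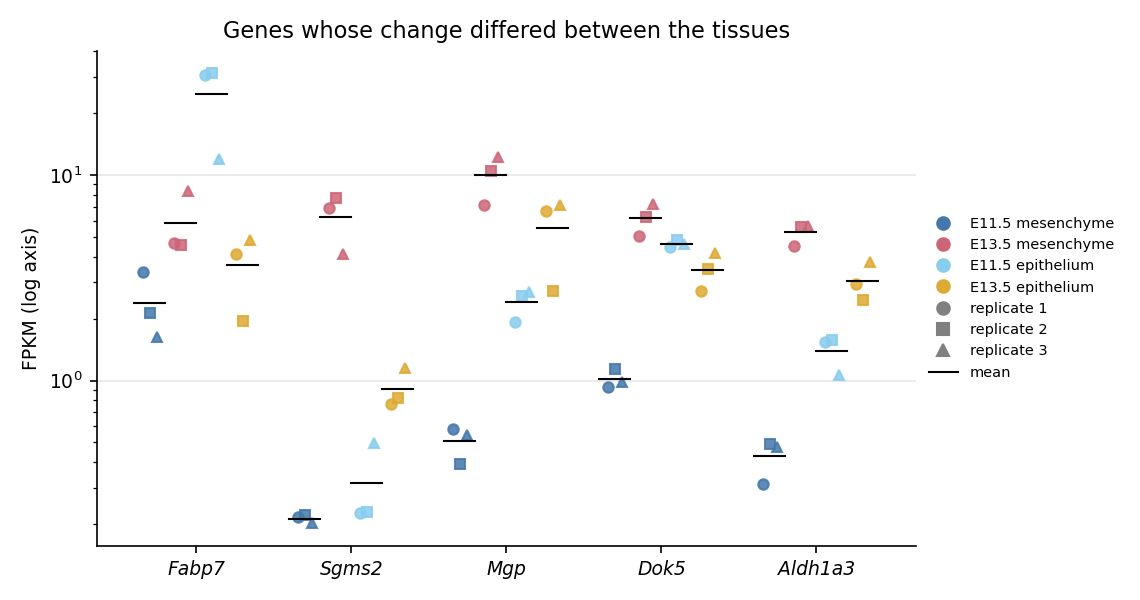
FPKM of the 5 genes (log axis) in all 12 libraries, by tissue and stage, with a symbol for each replicate and a line at the mean of 3 libraries. In mesenchyme Dok5 lay at 0.934 to 1.13 FPKM at E11.5 and 5.06 to 7.21 FPKM at E13.5, and in epithelium at 4.48 to 4.84 FPKM and then 2.73 to 4.17 FPKM.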

How the data were processed

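RNA for 12 libraries, 3 for each tissue and stage, was captured on oligo(dT) beads and sequenced. Among the tools, StringTie 1.3.4d, HISAT2 2.0.4 and edgeR are listed in the processing notes of the submitters, with the build mm10. The deposited table holds whole-number counts per gene, taken here as estimated counts from transcript coverage that the authors rounded, because their sums exceed the sequenced read pairs, and FPKM values, which the authors scaled by transcript length and library depth. The counts were used as deposited, and counting noise is therefore larger than a count of that size would give.

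Stages were compared within mesenchyme with edgeR 4.0.16 (R 4.3.3), with TMM scaling, filterByExpr and the quasi-likelihood test, and p-values were adjusted by the Benjamini-Hochberg method over all genes tested. The interaction was fitted on all 12 libraries. The fit was tested on simulated counts with a shared dispersion and a small, balanced set of changed genes of higher counts. That setting differs from these data and does not bear on calls at low counts. DESeq2 1.42.0, limma 3.58.1 on log2(FPKM + 0.5), other scalings and filters, a replicate block and fits without single libraries were the alternatives.

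Named genes were the 6 stage markers, in each direction the 12 called genes of largest fold with at least 5 FPKM, no overlap and an established symbol, up to 4 called genes of largest fold per list, and up to 5 called genes per direction of the interaction. Further list members serve as examples and were picked with their values in view. The members and the 35 lists (551 genes, 550 in the table) were chosen with earlier results of these data known, so no list is independent evidence of its direction. Some genes that this rule selects are not reported here.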

Additional observations from a re-analysis of the deposited data

Results flagged for a closer look

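In a test of the difference between the change in mesenchyme and the change in epithelium over all 12 libraries, 15 of the 806 genes called in mesenchyme at 5 FPKM or more passed, all with a more positive change in mesenchyme. Of the genes named here, the difference on the log2 scale was 4.04 for Fabp7 (SE 0.64, edgeR adjusted p = 0.0316), 3.36 for Sgms2 (SE 0.47, adjusted p = 0.0156) and 3.08 for Mgp (SE 0.50, adjusted p = 0.0348). It was 3.02 for Dok5 (SE 0.29, adjusted p = 0.00166) and 2.50 for Aldh1a3 (SE 0.32, adjusted p = 0.0094). It was 2.07 for Tagln (SE 0.28, adjusted p = 0.0123), 1.42 for Gpc4 (SE 0.22, adjusted p = 0.0290) and 1.19 for Igfbp5 (SE 0.20, adjusted p = 0.0396). Under 5 FPKM it was 3.82 for Gdnf (SE 0.57, adjusted p = 0.0213) and 3.08 for Spock2 (SE 0.43, adjusted p = 0.0152). For Fabp7 and Dok5 every E13.5 library stood above every E11.5 library in mesenchyme and below in epithelium.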

How the results depend on the processing

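The counts of called genes were 2646 higher and 626 lower. Without a fold threshold they were 4465 and 3437. With limma they were 1339 and 315 on log2(FPKM + 0.5), 910 and 189 on log2(FPKM + 1), 1899 and 535 on log2(FPKM + 0.1), and 1296 and 274 on log2(FPKM + 0.5) with no filter. Leaving out each mesenchyme library in turn gave 2284 to 2700 higher and 517 to 838 lower. The interaction, with 42 genes more positive and 3 more negative in mesenchyme, gave 25 and 1 with no filter on low counts, 732 and 237 with DESeq2, 97 and 16 with the unnumbered libraries as a term, and 14 to 2126 and 1 to 970 when each library was left out in turn. The cause of these differences was not tested, apart from the fold threshold, which sets the counts by construction.

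Whether the replicate numbers pair the samples cannot be told from these libraries, since all correlations were weak. Deviations of same-numbered mesenchyme libraries correlated at r = 0.13, 0.03 and 0.08, and those of differently numbered ones at -0.12 to 0.06. E11.5 replicate 2 correlated more with E13.5 replicate 3 (r = 0.06) than with its own number. With the replicate block the counts were 2673 higher and 649 lower, and the interaction gave 18 and 1. Of 2549 values of the 151 named genes under the alternatives, 2524 kept their direction and side of the threshold, 24 no longer passed, 1 newly passed and none reversed. Genes of low level that a filtered limma fit left out, among them Wnt16, Tnxb and Hs6st3, are not counted for that fit. With limma on log2(FPKM + 0.5) 145 named genes had a value. The comparison with the numbered libraries alone was added after seeing the data.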
